A study of Mus musculus with 8 samples.

Results

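The 10 genes described here, Slc25a1, Acly, Acss2, Me1, Acaca, Fasn, Thrsp, Mid1ip1, Mlxipl and Srebf1, carry out or control de novo lipogenesis, the making of fatty acids from sugar carbon. They were found by symbol. All 10 were found among the 32285 genes counted. The material was the stromal vascular fraction (SVF) of subcutaneous inguinal white fat (sWAT) from C57BL/6 mice (C57BL/6J in the study), sequenced as single cells in 8 droplet libraries that count the 3′ ends of transcripts. In 4 libraries the mice had chow at all times (Ad-Lib, replicates 1, 3, 5 and 7), and in 4 they were fed 2 times a night (TAN, replicates 2, 4, 6 and 8), that is, in 2 windows of 2 h each. The study describes male mice of the same chow diet, with slightly less food eaten under TAN. Killing was in the dark phase after the first window, and the study's stated interval and its clock times differ on how long after. The long regimen and the recent meal thus cannot be told apart. The age stated in the labels is 8 weeks for every sample, but in the study's account the mice were older and had months of the regimen, and the age was not settled here. The labels do not say that each library is a separate animal, while the study speaks of animal replicates and counts as many mice per group as there are libraries. The p-values measure the spread between these libraries.

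In lipogenesis, citrate leaves the mitochondrion through the carrier Slc25a1 and is split by Acly (ATP citrate lyase) into acetyl-CoA, a product that Acss2 can also form from acetate. Acaca (acetyl-CoA carboxylase) turns acetyl-CoA into malonyl-CoA in the committed step, and Fasn (fatty acid synthase) builds palmitate from it with NADPH that malic enzyme, Me1, helps to supply. Thrsp and Mid1ip1 are related small proteins, and Mid1ip1 promotes the polymerisation of acetyl-CoA carboxylase. Mlxipl encodes ChREBP, the transcription factor that responds to carbohydrate, and Srebf1 encodes SREBP, which responds to insulin and sterols. In white fat the pathway is best known from mature adipocytes, where feeding after fasting turns it on.

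In the GRCm38 annotation (GENCODE M21), 4 members lie on chromosome 11: Acly at chr11:100476353-100528000, Fasn at chr11:120805846-120824547 and Srebf1 at chr11:60199089-60222581, all on the minus strand, and Acaca at chr11:84129672-84401651 on the plus strand. Me1 (chr9:86581371-86695953), Slc25a1 (chr16:17925223-17928219) and Thrsp (chr7:97412938-97417730) are on the minus strand. Acss2 (chr2:155517948-155585724), Mid1ip1 (chrX:10715013-10719690) and Mlxipl (chr5:135089890-135138382) are on the plus strand.

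Transcription start regions are shown because most of the members below moved together. RefSeq start windows (GRCm38.p6) were found for all 10 members, 14 windows in all, and 4 motifs were searched on both strands in the 250 bases before each start. CCAAT, the letters that NF-Y binds, was in 8 of the 14 member windows (7 members), and 33.8% of all 32851 RefSeq windows of that length hold it. The GC box GGGCGG was also in 8 of the 14 (7 members), against 32.7% of all windows. The palindrome CACGTG, the core of carbohydrate response elements, was in 2 of the 14 windows (Mlxipl and Slc25a1), against 6.02% of all. The sterol element TCACNCCAC was in 1 of the 14, a Mlxipl window, against 1.05% of all. The 120 bases before the start are printed for Fasn and Thrsp, which have paired CCAAT letters, for Acly and Slc25a1, which have GC boxes, and for 1 of the Srebf1 starts, which holds both motifs in a gene whose RNA did not pass the test below. All 5 lie on the minus strand and are written 5′ to 3′ along the gene; capitals mark CCAAT and GGGCGG or their reverse complements.
Fasn, chr11:120824548-120824667: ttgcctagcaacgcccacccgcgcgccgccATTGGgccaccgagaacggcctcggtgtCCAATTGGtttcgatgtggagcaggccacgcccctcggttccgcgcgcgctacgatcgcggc
Thrsp, chr7:97417551-97417670: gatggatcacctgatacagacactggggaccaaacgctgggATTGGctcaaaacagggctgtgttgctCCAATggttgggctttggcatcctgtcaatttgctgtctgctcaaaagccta
Acly, chr11:100528001-100528120: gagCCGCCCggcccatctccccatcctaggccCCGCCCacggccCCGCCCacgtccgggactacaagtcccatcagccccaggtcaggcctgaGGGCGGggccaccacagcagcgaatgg
Slc25a1, chr16:17928220-17928339: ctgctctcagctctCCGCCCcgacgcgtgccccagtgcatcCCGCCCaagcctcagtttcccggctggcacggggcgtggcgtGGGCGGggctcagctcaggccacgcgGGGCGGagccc
Srebf1, chr11:60210472-60210591: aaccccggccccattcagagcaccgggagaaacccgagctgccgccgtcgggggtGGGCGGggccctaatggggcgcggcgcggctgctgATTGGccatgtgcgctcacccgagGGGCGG
In Fasn the run CCAATTGG holds a CCAAT on each strand, overlapping by 2 bases, and a further one begins 90 bases before the start. In Thrsp the CCAAT letters begin 79 and 52 bases before the start. A match is a string of letters, not a measured site.

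Of 44427 barcodes, 36370 passed the study's limits on UMIs (distinct transcript molecules), genes and mitochondrial share, with 3717 to 5654 droplets per library, and before that step a library held 25320800 to 37140950 UMIs. Droplets were sorted by 1 marker each: Pdgfra for adipocyte progenitors (8199 droplets), Pecam1 for endothelial cells (8476), C1qa for macrophages (3977), Cd3e for T cells (2254) and Cd79a for B cells (1802). A further 398 droplets, 1.09% of those kept, were rich in the adipocyte transcripts Adipoq (adiponectin) and Car3 (carbonic anhydrase of muscle and fat). They numbered 25 to 80 per library. Floating adipocytes are discarded when SVF is prepared, and whether these droplets hold adipocytes, their fragments or cells on the way to becoming adipocytes was not tested. The 14 adipocyte reference genes made up 57995 to 71472 CPM (UMIs of a gene per 1000000 UMIs of that class) of their RNA, and the groups overlapped. In Pecam1+ droplets the same genes summed to 38847 to 48791 CPM, so this sum does not by itself mark adipocytes. Their endothelial markers summed to 1275 to 2777 CPM, against 3917 to 4765 CPM in Pecam1+ droplets, and their gate did not exclude Pecam1. In the adipocyte-rich droplets 8 of 9 mammary epithelial markers were at 0. So were 3 of 7 brown or beige fat markers (Ucp1, Elovl3 and Dio2), the other 4 giving sums of 22.8 to 181 CPM in Ad-Lib and 61.4 to 106 CPM in TAN. Their median of 1712 UMIs was below that of every other class, and they are called adipocyte-rich droplets rather than adipocytes. Only 252 of 44172 barcode sequences occurred in more than 1 library.

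Adipocyte-rich droplets of TAN mice held more RNA of nearly the whole pathway. Of the 8 members with enough counts for the test, 7 rose in TAN and none fell, and the median of the 8 log2 changes was 1.51 against 0.01 over all genes tested. In the same comparison 1.24% of the 1934 genes tested rose and 0.931% fell (edgeR's quasi-likelihood test over library sums, called at a Benjamini-Hochberg adjusted p below 0.05 where the fold change reached 1.5). Of the 7, Acly and Mid1ip1 reached the filter's minimum of 74.9 CPM in 3 of 4 Ad-Lib libraries and the other 5 in all 4. Every TAN library exceeded every Ad-Lib library for 8 of the 10 members and for 4.6% of the genes tested. Levels are comparable between libraries within a gene; they were not divided by transcript length, so no order between genes is drawn.

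Acly and Me1, which supply acetyl-CoA and NADPH, had the largest changes of the members in these droplets. Acly stood at 45.5, 104, 175 and 113 CPM in Ad-Lib libraries 1, 3, 5 and 7 and at 793, 726, 546 and 819 CPM in TAN libraries 2, 4, 6 and 8. The lowest TAN library was thus far above the highest Ad-Lib library, and the log2 change was 2.58 ± 0.25 (SE; edgeR adjusted p = 2.03e-07), a 5.99-fold rise. Those levels rest on 2 to 25 UMIs per Ad-Lib library and 36 to 143 per TAN library. Me1 stood at 296, 104, 251 and 135 CPM under Ad-Lib and at 1206, 954, 911 and 783 CPM in TAN, again without overlap, with a log2 change of 2.41 ± 0.26 (edgeR adjusted p = 1.11e-06).

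The citrate carrier Slc25a1 rose less, from 91.1, 112, 189 and 143 CPM to 357, 228, 486 and 373 CPM (log2 change 1.29 ± 0.27, edgeR adjusted p = 0.00488). Its lowest TAN library, TAN 4, was close to the highest Ad-Lib library but still above it. Acss2, which forms acetyl-CoA from acetate, had too few counts for the test, with 12 UMIs in Ad-Lib and 52 in TAN. Its levels were 22.8, 22.4, 48.9 and 7.52 CPM under Ad-Lib and 123, 81.2, 60.7 and 120 CPM in TAN, and the groups did not overlap.

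Both enzymes of fatty acid synthesis proper rose by similar amounts. Acaca was at 182, 149, 182 and 143 CPM under Ad-Lib and at 531, 457, 349 and 409 CPM in TAN (log2 change 1.46 ± 0.24, edgeR adjusted p = 0.000332). The 4 Ad-Lib libraries lay within a narrow band, and the TAN libraries lay above it. Fasn was at 660, 605, 1334 and 842 CPM under Ad-Lib and at 2452, 2283, 2231 and 3023 CPM in TAN (log2 change 1.49 ± 0.20, edgeR adjusted p = 2.05e-05). Ad-Lib library 5 was the highest of its group for Fasn, as it was for Acly, Slc25a1, Acss2 and Thrsp, yet it stayed below every TAN library.

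Thrsp was at 1047, 1060, 2458 and 1670 CPM under Ad-Lib and at 5066, 4962, 4644 and 4818 CPM in TAN, a rise of 3.04-fold (log2 change 1.60 ± 0.21, edgeR adjusted p = 1.05e-05). The TAN libraries differed little among themselves for this gene (4872 ± 183 CPM, SD, n = 4), whereas the Ad-Lib libraries spread more widely (1559 ± 666 CPM). Mid1ip1 rose from 91.1, 44.8, 76.8 and 82.7 CPM to 201, 183, 243 and 217 CPM (log2 change 1.53 ± 0.28, edgeR adjusted p = 0.00157). Both accessory genes therefore moved by close to the same factor as Fasn and Acaca.

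Neither transcription factor was called in these droplets. Srebf1 was at 68.3, 104, 105 and 52.7 CPM under Ad-Lib and at 123, 81.2, 75.9 and 120 CPM in TAN, so the groups overlapped, and its log2 change of 0.25 ± 0.33 did not pass the test (edgeR adjusted p = 0.784). Mlxipl had 10 UMIs in Ad-Lib and 9 in TAN, too few to test, and its groups overlapped as well. Within a library, Fasn had 5.79 to 16 UMIs for each Srebf1 UMI in Ad-Lib and 19.95 to 29.4 in TAN, and these ranges did not overlap. Against Acly the order turned: Fasn had 5.79 to 14.5 UMIs per Acly UMI in Ad-Lib and 3.09 to 4.08 in TAN. Against Thrsp the ranges overlapped, at 0.505 to 0.63 and 0.46 to 0.627 Fasn UMIs per Thrsp UMI.

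**Figure D1:**
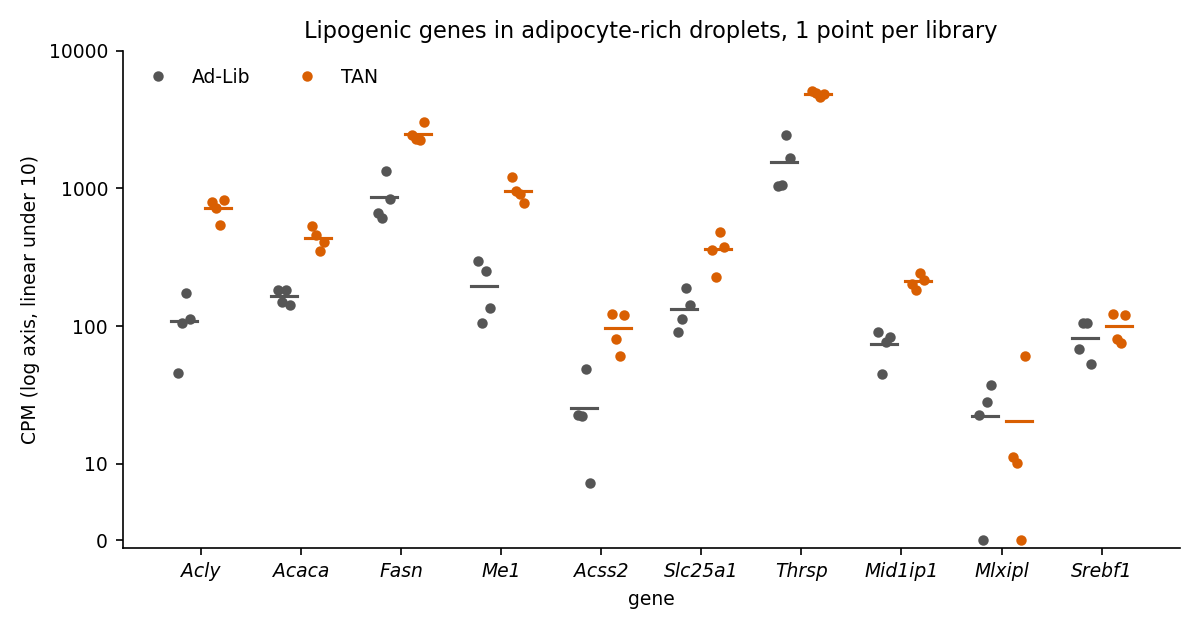
Level of each of the 10 genes in adipocyte-rich droplets, in CPM on a log axis that is linear under 10; each point is 1 library (Ad-Lib or TAN, 4 each) and each line is the mean of its group. The TAN points lie above all Ad-Lib points for 8 genes, and the groups overlap for Mlxipl and Srebf1.

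The rise was carried by many droplets. After each droplet was thinned to 700 UMIs, a mean of 7.91% of adipocyte-rich droplets in Ad-Lib and 42.7% in TAN had an Acly UMI, and for Me1 the shares were 14.9% and 51.7%. Thrsp went from 65.5% to 91.7% and Fasn from 46.8% to 78.7%. Without thinning, Acly was found in 3.70% to 26.2% of these droplets per Ad-Lib library and in 68.0% to 81.3% per TAN library. In Cd79a+ droplets, whose median was 3401 UMIs, the thinned shares were 2.46% and 2.89% for Acly and 1.59% and 2.39% for Fasn.

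Plin1, the perilipin that coats lipid droplets, had no part in choosing the droplets. It averaged 376 ± 152 CPM under Ad-Lib and 392 ± 77.2 CPM under TAN, with overlap (log2 change -0.0092 ± 0.24, edgeR adjusted p = 0.997). Car3 averaged 14222 ± 2448 and 13880 ± 691 CPM, a level that the gate itself helps to set. The number of these droplets was 48 ± 15.9 in Ad-Lib and 51.5 ± 25.0 in TAN libraries. Their median mitochondrial share was higher in TAN, 5.44% ± 0.28 against 3.67% ± 0.67, in 4 of 4 libraries (exact permutation test, two-sided, p = 0.0286, the smallest that 4 against 4 allows), and macrophage markers were lower, 45.5 to 96.4 against 97.8 to 351 CPM. The part of either in the result was not tested.

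Some genes of neighbouring steps rose in these droplets, and most of those tested were not called; 1.24% of all genes rose, as given above. Ordered by adjusted p, Acly had rank 2 and Me1 rank 3 of all 42 genes called, behind Angptl8, a hormone-like protein that rises with feeding (3 UMIs in Ad-Lib and 141 in TAN). Tkt, the transketolase of the pentose phosphate pathway, rose from 322 to 1220 CPM (log2 change 1.95 ± 0.23) and was the only NADPH gene called of 5 tested. Elovl6, which lengthens palmitate, was the only one called of 5 elongation and desaturation genes tested, with 0 to 2 UMIs per Ad-Lib library and 7 to 37 per TAN library. Angptl8 and Elovl6 reached the low-count filter's minimum in no Ad-Lib library and in all 4 TAN libraries, so they entered the test through the group where they were high. With no more than 2 UMIs in any Ad-Lib library, below the floor of 3, no fold is given for them. Agpat2 of triglyceride assembly rose from 236 to 832 CPM (1.74 ± 0.23), 1 of 4 tested. Of 13 tested genes around cytosolic acetyl-CoA and malonyl-CoA, Mpc1 and Mpc2 rose, the 2 subunits of the mitochondrial pyruvate carrier, with log2 changes of 1.06 ± 0.20 and 0.80 ± 0.19. Insig1, which retains the SREBP complex in the endoplasmic reticulum and is itself a target of SREBP, rose from 66.1 to 295 CPM (1.87 ± 0.31), 1 of 4 tested genes of lipogenic transcription and its control. None of 3 tested genes of glucose and fructose entry was called, and that list's sum overlapped (1090 to 1292 CPM in Ad-Lib and 1048 to 1253 in TAN). The sums were apart for NADPH supply (828 to 1397 CPM in Ad-Lib and 2155 to 2674 in TAN). They were also apart for the genes around acetyl-CoA and malonyl-CoA (1933 to 2891 and 3410 to 4217 CPM). Those of elongation and desaturation, triglyceride assembly and lipogenic transcription overlapped. The glycolytic enzymes Gapdh, Eno1 and Aldoa, which are outside the lists and were picked after their values were seen, were among the genes called higher; no set of glycolytic genes was tested, so they say nothing of the pathway. Pck1, used for glycerol synthesis in fat, was the only gene called of 13 adipocyte reference genes tested, and it fell by 1.04 ± 0.25 on the log2 scale, from 594 to 304 CPM, with overlap between the groups.

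Over all droplets kept, with lineages mixed, no member passed edgeR's test. Here 0.00671% of 14911 genes rose, 7 of the 10 members had an unadjusted p under 0.05 (24.8% of genes), and DESeq2 called 6 members where 1.73% of genes rose by its test. In such sums fewer cells and less RNA per cell cannot be told apart. Fasn averaged 43.8 ± 10.3 CPM under Ad-Lib and 104 ± 33.5 in TAN without overlap (edgeR adjusted p = 0.0796), and 4 of 10 members were above in every TAN library, against 3.34% of genes.

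Setting the counts against an adipocyte transcript in the same library gave a narrower list. Per 1000 Adipoq UMIs over all droplets, Thrsp stood at 2713, 2453, 3436 and 2877 UMIs in Ad-Lib and 7214, 5483, 8566 and 6627 in TAN, a ratio of means of 2.43. Fasn stood at 1956, 1729, 1965 and 2147 in Ad-Lib and 3813, 2661, 5367 and 4392 in TAN, a ratio of 2.08. Me1 stood at 1081, 666, 715 and 797 in Ad-Lib and 1956, 1122, 2135 and 1922 in TAN, a ratio of 2.19. For each of these the groups were apart (exact permutation test, two-sided, p = 0.0286), whereas only 0.141% of genes had every TAN library above every Ad-Lib library on this scale. The same 3 members were apart per Car3 UMI (0.181% of genes) and per Plin1 UMI (0.174%). Acly overlapped here, with 2841 ± 495 in Ad-Lib and 3229 ± 1260 in TAN, and so did the other 6 members. For every member most UMIs lay outside adipocyte-rich droplets, which held 56 of 7254 Acly UMIs in Ad-Lib and 389 of 8066 in TAN. The ratio thus also follows the RNA and droplet numbers of other classes, and their part was not tested. In adipocyte-rich droplets alone 8 members were apart upward on this scale (3.83% of genes), but Adipoq helped to choose those droplets, so this count adds nothing to the levels given above.

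**Figure D2:**
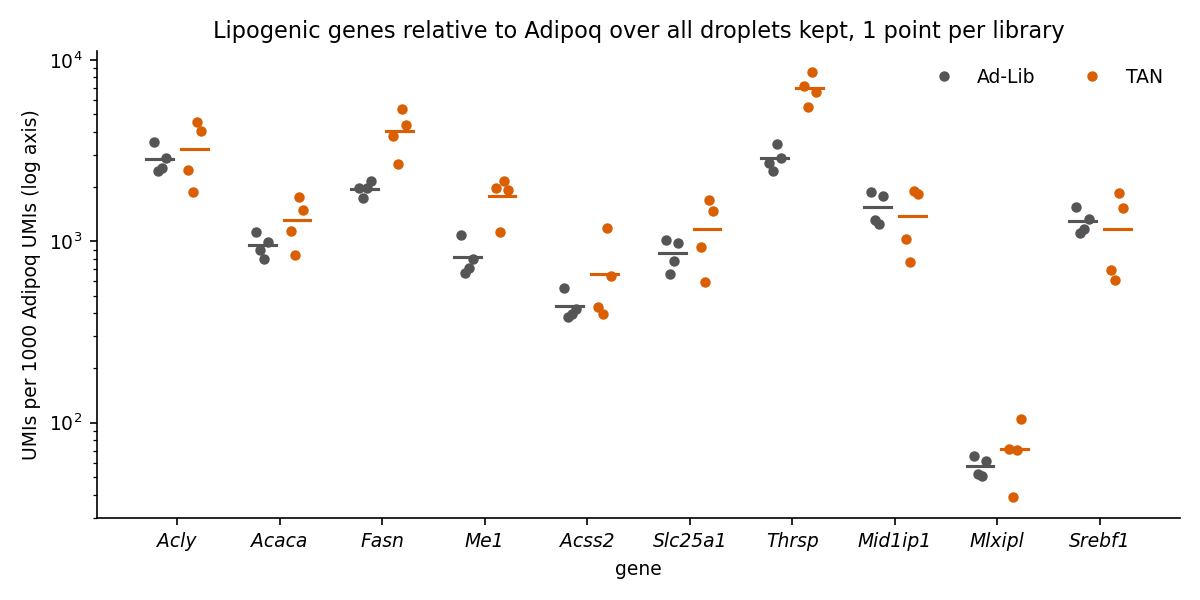
UMIs of each gene per 1000 Adipoq UMIs, summed over all droplets kept, by library and group. Thrsp, Fasn and Me1 lie higher in all 4 TAN libraries, and the other members overlap.

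In endothelial (Pecam1+) droplets 5 of 9 members tested rose in TAN (Me1, Fasn, Acaca, Slc25a1 and Thrsp), where 0.42% of 11668 genes rose, and 7 of 10 had every TAN library above every Ad-Lib library, against 3.54% of genes. Me1 was at 14.5, 18.9, 16.7 and 13.7 CPM under Ad-Lib and 119, 82.2, 60.03 and 56.6 CPM in TAN (log2 change 2.36 ± 0.25, edgeR adjusted p = 0.00145). Fasn was at 37.9, 43.8, 61.9 and 50.1 CPM under Ad-Lib and 216, 190, 117 and 107 CPM in TAN (1.76 ± 0.24, edgeR adjusted p = 0.0066). In both genes TAN libraries 2 and 4 were the highest, as they were for Car3 itself.

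Thrsp was at 197, 211, 266 and 198 CPM in Pecam1+ droplets of Ad-Lib and 533, 521, 333 and 291 CPM in TAN (log2 change 0.99 ± 0.21, edgeR adjusted p = 0.0415). This call was lost without any one of Ad-Lib 1, 3, 5 or 7 or TAN 2 or 4, with adjusted p up to 0.135. Acaca (22.8 to 49.5 CPM, log2 change 1.17 ± 0.17) and Slc25a1 (20.3 to 41.4 CPM, 1.08 ± 0.14) kept their calls with each library left out. Acly averaged 62.3 ± 9.91 CPM under Ad-Lib and 95.4 ± 18.1 in TAN, apart between groups but short of the threshold (edgeR adjusted p = 0.0549). The mitochondrial share of Pecam1+ droplets was also higher in TAN, 3.10% ± 0.32 against 1.99% ± 0.25, and its part in these results was not tested.

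Adipocyte RNA was present in these endothelial droplets. Car3, which endothelial cells are not known for, averaged 868 CPM under Ad-Lib and 897 CPM under TAN, and its level relative to the adipocyte-rich droplets of the same library put the share of adipocyte RNA at 4.25% to 9.22%, taking all Car3 there as adipocyte RNA. With Adipoq as the tracer the share was 1.60% to 4.23%, and with Plin1 1.95% to 7.36%. Adipoq and Car3 set the gate for adipocyte-rich droplets and Plin1 did not. Between Car3 and Adipoq every expected level in Pecam1+ droplets moved by over 1.5 times. The gate asked for at least 3 Adipoq UMIs, which can raise the Adipoq level of the droplets chosen. A raised level lowers the share by Adipoq and raises each excess by Adipoq, in every class, and its size was not tested. The share by a tracer, multiplied by a gene's level in adipocyte-rich droplets, gives the level expected from adipocyte RNA. The few UMIs of those droplets limit it (2 for Acly in Ad-Lib 1), and it takes all their RNA as adipocyte RNA. Their endothelial markers summed to 1275 to 2777 CPM, against 3917 to 4765 CPM in Pecam1+ droplets. Part of the expected level may thus be endothelial RNA, which was not tested. By Car3, Fasn was observed at 0.79 to 1.25 times this expected level and exceeded it in 3 of 8 libraries. By Adipoq it was at 1.80 to 3.11 times and above in all 8, with an excess of 26.5 ± 5.19 CPM in Ad-Lib and 84.8 ± 28.8 in TAN that did not overlap, and by Plin1 it was above in 6 of 8, with an excess of 4.32 ± 7.87 and 44.8 ± 26.0 CPM, also apart. Whether Fasn exceeded the level expected from adipocyte RNA thus depended on the tracer. By Car3, Me1 was at 0.94 to 2.05 times and exceeded it in 7 of 8, and the remaining 7 members apart from Mlxipl exceeded it in every library. By Car3, Thrsp exceeded it by 122 ± 20.9 CPM under Ad-Lib and 98.3 ± 29.5 CPM under TAN, and Acly by 55.3 ± 9.96 and 47.8 ± 3.15 CPM, with overlap in both. By Adipoq the Thrsp excess was 178 ± 20.5 and 273 ± 61.5 CPM, without overlap, and by Plin1 139 ± 33.8 and 189 ± 47.3 CPM, with overlap. By Car3, Acaca exceeded it by 12.6 ± 3.89 and 19.9 ± 4.21 CPM and Slc25a1 by 11.9 ± 2.95 and 19.4 ± 4.49 CPM, also with overlap, whereas by Adipoq and by Plin1 the excess of both, and that of Me1, was higher in every TAN library.

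The 2822 Pecam1+ droplets without a Car3 or Adipoq UMI gave a different list. They can still hold other adipocyte RNA, which was not excluded. Thrsp averaged 140 ± 19.7 CPM there under Ad-Lib and 132 ± 32.9 CPM under TAN (log2 change -0.03 ± 0.16, edgeR adjusted p = 0.965), on 872 and 855 UMIs. Thrsp was thus still plentiful in these droplets, and its groups overlapped. Fasn averaged 11.2 ± 2.62 CPM under Ad-Lib and 31.6 ± 2.60 CPM under TAN (log2 change 1.53 ± 0.19, edgeR adjusted p = 0.0196), the only member called where 0.0206% of genes rose. Me1 averaged 5.22 and 15.6 CPM, apart between groups but not called (edgeR adjusted p = 0.145), and reached the filter's minimum in 1 Ad-Lib and 4 TAN libraries. For Acly (54.8 and 55.2 CPM), Acaca (14.3 and 15.7) and Slc25a1 (13.1 and 14.1) the groups overlapped.

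**Figure D3:**
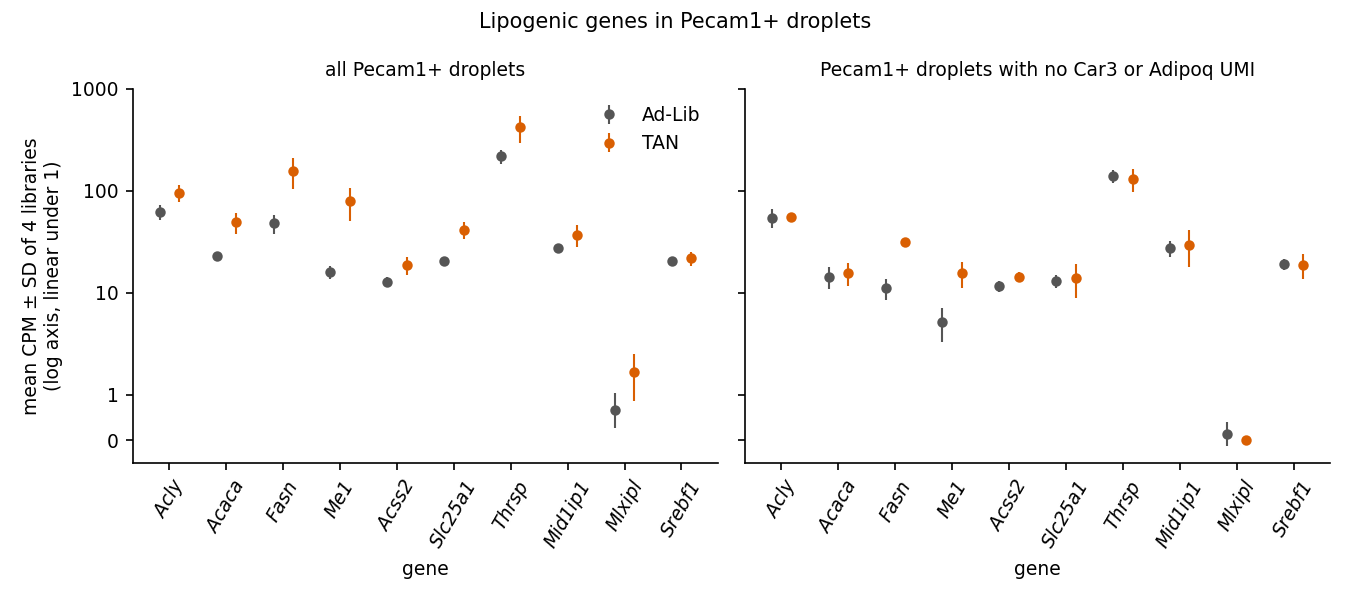
Level of the members in Pecam1+ droplets, all of them and those with no Car3 or Adipoq UMI, as mean ± SD of 4 libraries per group in CPM on a log axis that is linear under 1. Thrsp is higher in TAN in all Pecam1+ droplets (218 and 419 CPM) and its groups overlap in those without a Car3 or Adipoq UMI (140 and 132 CPM), whereas Fasn is higher in TAN in both. Other adipocyte RNA was not excluded from the latter.

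Of 9 members tested in macrophage (C1qa+) droplets, Thrsp, Fasn and Acaca rose in TAN, where 0.212% of 9914 genes rose. Me1 was called as well but is kept out of that count, since it entered the test through TAN alone, and 6 of 10 were apart upward, against 2.53% of genes. Me1 was at 1.85, 1.52, 2.01 and 0.592 CPM under Ad-Lib and 16.4, 18.8, 12.3 and 19.8 CPM in TAN, on 24 and 152 UMIs (log2 change 3.46 ± 0.29, edgeR adjusted p = 1.10e-05). With 2 to 10 UMIs per Ad-Lib library, Me1 reached the low-count filter's minimum of 3.35 CPM in no Ad-Lib library and in all 4 TAN libraries, so its place among the genes tested depended on its level in TAN. With no filter on low counts its log2 change was 3.45 ± 0.30 (edgeR adjusted p = 8.18e-18). Thrsp was at 7.79, 6.67, 13.8 and 11.5 CPM under Ad-Lib and 43.7, 67.2, 31.5 and 63.6 CPM in TAN (2.44 ± 0.23, edgeR adjusted p = 3.31e-05). Fasn was at 11.1, 11.2, 12.1 and 10.6 CPM under Ad-Lib and 39.2, 49.8, 26.0 and 40.9 CPM in TAN (1.83 ± 0.19, edgeR adjusted p = 6.63e-05).

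Acaca rose from 8.95 to 15.7 CPM in C1qa+ droplets (log2 change 0.84 ± 0.18, edgeR adjusted p = 0.042), a call lost without Ad-Lib 1, 3 or 7 or TAN 2, 4 or 8, with adjusted p up to 0.13. DESeq2 gave no adjusted p for Me1 and Acaca there, which its own filter on low counts left out. Acly (56.1 to 71.9 CPM, edgeR adjusted p = 0.0971) and Slc25a1 (16.4 to 22.8 CPM, 0.115) were apart but not called. Car3 in these droplets averaged 101 CPM under Ad-Lib and 158 CPM under TAN, with overlap (edgeR adjusted p = 0.0872). Fabp4, a fatty acid carrier of adipocytes that macrophages also make, rose from 424 to 632 CPM without overlap (log2 change 0.60 ± 0.11, edgeR adjusted p = 0.0233), the only gene called of 9 adipocyte reference genes tested, whose median log2 change was 0.60 against 0.0016 over all genes. The part of these in the results was not tested. The number of droplets was lower in TAN, 380 ± 44.2 against 615 ± 176. Thrsp was at 0.72 to 1.47 times the level expected from Car3 and above it in 3 of 8 libraries. By Adipoq it was at 1.16 to 4.56 times and above in all 8, with an excess of 4.01 ± 2.02 CPM in Ad-Lib and 31.5 ± 14.9 in TAN, and by Plin1 it was above in 5 of 8, the groups being apart for both tracers. By Car3, Fasn was at 1.04 to 3.32 times and above it in all 8, with an excess of 4.92 ± 2.65 CPM in Ad-Lib and 10.1 ± 5.81 in TAN that overlapped; by Adipoq (8.03 ± 1.85 and 28.7 ± 7.54) and by Plin1 (5.17 ± 2.39 and 18.0 ± 8.13) the excess was apart. Me1 exceeded the level expected from Car3 by 0.15 ± 0.47 CPM under Ad-Lib and 5.90 ± 2.79 CPM under TAN, with no overlap by this tracer or by Adipoq or Plin1. In the 2799 C1qa+ droplets without a Car3 or Adipoq UMI, Fasn averaged 7.58 and 15.1 CPM, apart between groups but no longer called (log2 change 1.02 ± 0.24, edgeR adjusted p = 0.0681). Thrsp averaged 2.97 and 18.6 CPM there on 31 and 98 UMIs, and Me1 0.625 and 7.50 CPM on 8 and 40 UMIs, both apart. These 2 were the only members called where 0.0887% of genes rose, but neither reached the filter's minimum of 5.14 CPM in any Ad-Lib library, so their calls are not read as support.

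Progenitor (Pdgfra+) droplets carried most of the pathway at levels that did not pass the test. Of 10 members tested, 2 rose in TAN (Thrsp and Mlxipl), where 0.295% of 12191 genes rose, and 4 of 10 were apart upward, against 4.4% of genes. The median of the 10 log2 changes was 0.18, against 0.01 over all genes. Acly was at 59.6, 69.9, 72.9 and 64.0 CPM under Ad-Lib and 68.2, 70.5, 66.02 and 79.4 CPM in TAN, which overlap (log2 change 0.07 ± 0.08, edgeR adjusted p = 0.757). Fasn was at 33.8, 40.7, 36.1 and 38.9 CPM under Ad-Lib and 46.5, 45.8, 45.3 and 46.4 CPM in TAN (0.28 ± 0.08, edgeR adjusted p = 0.115). Fasn was thus slightly higher in every TAN library without reaching the threshold.

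Thrsp was at 1.74, 2.64, 7.58 and 3.88 CPM in Pdgfra+ droplets of Ad-Lib and 14.1, 15.5, 9.89 and 15.2 CPM in TAN (log2 change 1.83 ± 0.31, edgeR adjusted p = 0.0181), a call lost without TAN 2, 4 or 8. Car3 was at 37.4 and 43.4 CPM, which put adipocyte RNA at 0.168% to 0.381% of these sums, and Thrsp was at 0.78 to 1.05 times the level expected from it, above it in 1 of 8 libraries. By Adipoq it was at 1.60 to 3.48 times and above in all 8, with an excess of 1.74 ± 0.805 CPM in Ad-Lib and 8.51 ± 1.73 in TAN that did not overlap, and by Plin1 it was above in 6 of 8. Plin1 had 0 UMIs there in TAN 6, so the expected level was 0 and any Thrsp UMI exceeded it. The 9 members other than Thrsp exceeded the level expected from Car3 in all 8 libraries, with Acly at 25.5 times it or more and Fasn at 5.07 to 30.6 times. For Mlxipl the expected level was 0 in Ad-Lib 3 and TAN 6, whose adipocyte-rich droplets held 0 Mlxipl UMIs. In the 7296 Pdgfra+ droplets without a Car3 or Adipoq UMI, Thrsp averaged 0.757 and 3.52 CPM on 32 and 90 UMIs. It was the only member called where 0.208% of genes rose, but it reached the filter's minimum of 1.11 CPM in 1 Ad-Lib and 4 TAN libraries, so this call is not read as support.

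Mlxipl, the carbohydrate-responsive factor, was at 1.44, 1.70, 2.02 and 1.60 CPM in Pdgfra+ droplets of Ad-Lib and 3.36, 3.18, 4.60 and 2.84 CPM in TAN, on 85 and 97 UMIs. The groups did not overlap (log2 change 0.99 ± 0.22, edgeR adjusted p = 0.0491), but leaving out any 1 library ended the call. In droplets without a Car3 or Adipoq UMI it averaged 1.65 and 3.34 CPM (edgeR adjusted p = 0.0678). Srebf1 was at 37.6 ± 5.14 and 40.1 ± 3.65 CPM and overlapped. The adipocyte reference genes summed to 1157 to 1503 CPM under Ad-Lib and 1746 to 2636 CPM under TAN, with Fabp4, a fatty acid carrier that progenitors gain as they differentiate and that endothelial cells also make, rising from 298 to 876 CPM. The number of Pdgfra+ droplets was lower in TAN, 792 ± 173 against 1258 ± 295 (exact permutation test, two-sided, p = 0.0286). The part of these in the results was not tested.

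Lymphoid droplets gave no member past the test. In Cd3e+ droplets 0 of 8 members tested were called by edgeR and 1 by DESeq2, where 1.11% of 7810 genes rose by edgeR and 1.2% by DESeq2, and 2 had an unadjusted p under 0.05, as did 21.1% of genes. Thrsp averaged 6.82 and 24.1 CPM there with overlap (log2 change 1.89 ± 0.54, edgeR adjusted p = 0.0639). Me1 was the only member apart upward, against 3.53% of genes, and its 6 and 56 UMIs were too few for the test. Progenitor transcripts in Cd3e+ droplets differed as well: Dcn, a matrix proteoglycan, fell from 319 ± 231 to 33.8 ± 17.0 CPM, with overlap between the groups. In Cd79a+ droplets edgeR called 0 of 7 members tested and 0 of 6766 genes, DESeq2 called 0 members and 0% of genes, and 1 member (Thrsp) had an unadjusted p under 0.05, as did 1.66% of genes. No member was apart in Cd79a+ droplets, where 1.43% of genes were apart upward. The smallest of the Ad-Lib libraries held only 18 such droplets.

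**Figure D4:**
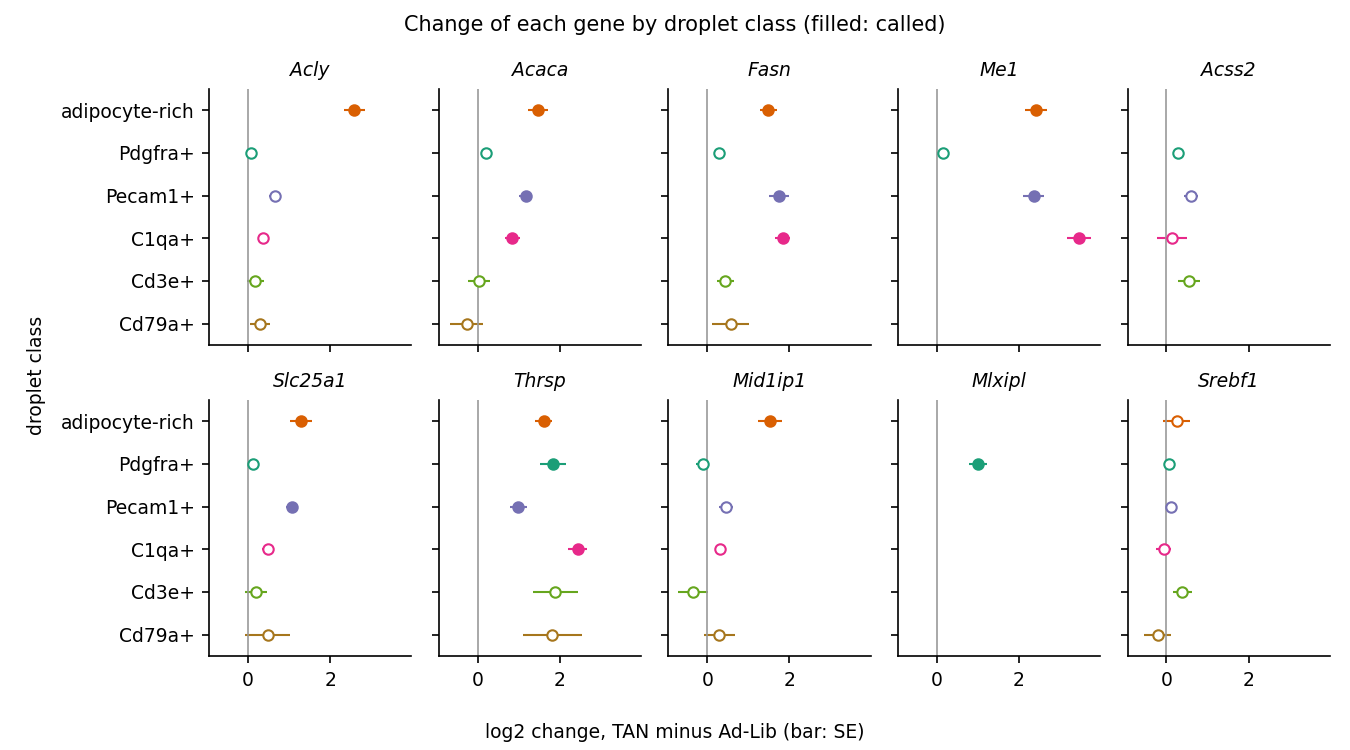
Log2 change (TAN minus Ad-Lib) of each member in each class of droplets, with its SE; filled symbols passed the test and blanks were not tested. The filled symbols number 7 in adipocyte-rich, 5 in Pecam1+, 4 in C1qa+ and 2 in Pdgfra+ droplets, and none in Cd3e+ and Cd79a+. The 4 in C1qa+ include Me1, which entered the test through TAN alone and is left out of the count in the text.

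Acly was the member whose change differed from that in adipocyte-rich droplets in every other class. Its log2 change was smaller than in adipocyte-rich droplets by 2.53 ± 0.24 in Pdgfra+ droplets (edgeR adjusted p = 4.62e-09), by 1.95 ± 0.25 in Pecam1+ (1.08e-05), by 2.27 ± 0.25 in C1qa+ (3.02e-07), by 2.36 ± 0.29 in Cd3e+ (3.66e-06) and by 2.22 ± 0.33 in Cd79a+ droplets (0.000467), in a fit over both classes with the library as a block. The call in Cd79a+ droplets was lost without Ad-Lib 3. Acly was the only member called in that test outside Pdgfra+ droplets, where 0.0154% of 13024 genes were called for Pecam1+, 0.0614% for C1qa+, 0.253% for Cd3e+ and 0.0154% for Cd79a+. For Pdgfra+ droplets (0.146% of genes), Me1, Acaca and Fasn were called too, with changes smaller by 2.28 ± 0.27, 1.28 ± 0.21 and 1.27 ± 0.26. Acly also exceeded the level expected from Car3 in all 8 libraries in each of the 5 other classes. Of 50 pairs of member and class, 34 exceeded it in every library, 9 in Pdgfra+, 7 each in Pecam1+, C1qa+ and Cd3e+ and 4 in Cd79a+ droplets, and the count was 40 with Adipoq and 34 with Plin1. Where a library had 0 tracer UMIs the expected level was 0, so any UMI of a member, Acly included, counted as above. This was so for Car3 in Cd79a+ Ad-Lib 1 and for Adipoq in Ad-Lib 1 of Cd3e+ and Cd79a+. It was so for Plin1 in Pdgfra+ TAN 6, Cd3e+ TAN 2 and Cd79a+ Ad-Lib 1 and 7.

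**Figure D5:**
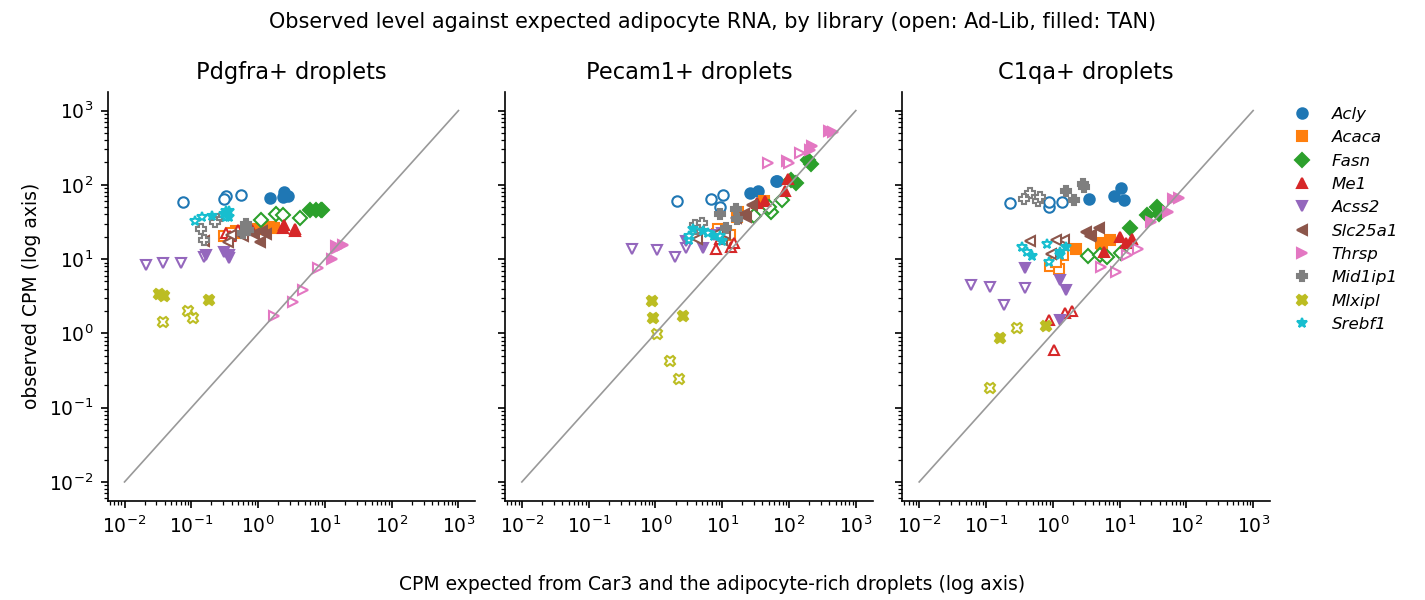
Observed level of the members against the level expected from the Car3 share of adipocyte RNA, both in CPM on log axes; each point is 1 library of 1 class, open for Ad-Lib and filled for TAN, the line marks equality and points at 0 are left out. Thrsp in Pdgfra+ droplets lies along the line at 0.78 to 1.05 times the level expected from Car3 (1.60 to 3.48 times that expected from Adipoq), and Acly lies above it in every class.

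Outside the adipocyte-rich class, few genes of the neighbouring lists were called. In Pecam1+ droplets, where 0.42% of all genes rose, Elovl6 rose from 3.66 to 15.3 CPM (log2 change 2.11 ± 0.37), 1 of 10 elongation and desaturation genes tested. Agpat2 (21.5 to 56.5 CPM) and Dgat2, which completes triglyceride (20.4 to 35.0 CPM), were 2 of 7 genes of triglyceride assembly, and Tkt (64.2 to 125 CPM) was 1 of 8 NADPH genes. Pfkfb3, which sets the level of a glycolytic activator, was the only gene called there of 8 tested for glucose and fructose entry, and it fell from 53.8 to 26.1 CPM. The summed level did not overlap between groups for 3 of the 6 lists there: 123 to 156 CPM in Ad-Lib and 173 to 236 in TAN for triglyceride assembly, 381 to 435 and 461 to 549 for NADPH supply, and 686 to 710 and 764 to 895 for the genes around acetyl-CoA and malonyl-CoA. In C1qa+ droplets, where 0.212% of genes rose, Scd1, the fatty acid desaturase (29.1 to 61.3 CPM, with overlap), was 1 of 9 elongation and desaturation genes tested. Dgat2 (3.91 to 11.7 CPM) and Agpat2 (18.4 to 28.8 CPM) were 2 of 6 genes of triglyceride assembly. No gene of the other 4 lists was called there, and the summed levels of all 6 lists overlapped between groups. In Pdgfra+ droplets (0.295% of genes) none of the 6 lists of neighbouring steps had a gene called, and the summed level was apart for the genes around acetyl-CoA and malonyl-CoA alone, at 676 to 708.6 CPM in Ad-Lib and 709.5 to 792 in TAN.

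Across the 48 sums of 6 classes and 8 libraries, the genes whose log2(CPM + 1) followed Fasn most closely among 8746 genes were Ndufab1, the mitochondrial acyl carrier protein (Pearson r = 0.958), Pcx, pyruvate carboxylase (0.945), Agpat2 (0.939), Mpc1 (0.939) and Aldoa, an aldolase of glycolysis (0.938). Of the members, Me1 ranked 13th (0.925), Acaca 29th, Slc25a1 35th and Thrsp 71st, whereas Acly ranked 140th and Mid1ip1 833rd (0.579). The sums share libraries, and adipocyte-rich droplets set them apart, so these r values are a description.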

How the data were processed

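Inguinal fat pads were digested with collagenase, strained and spun, and the pelleted SVF was loaded for droplet sequencing. The authors counted UMIs per gene and droplet with Cell Ranger against mm10 (GRCm38), and the deposited values are raw counts; the file headers name version 6.0.1 and the submitters' processing notes 3.0.2. The study's methods describe cell filtering for 4 samples, whereas 8 libraries were used here.

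Droplets with 700 to 30000 UMIs, 200 to 8000 genes and at most 10% mitochondrial UMIs were kept, and doublets were not removed. A droplet was gated by at least 1 UMI of Pdgfra, Pecam1 or Cd3e or 2 of C1qa or Cd79a, with no other gate passed. Adipocyte-rich droplets had at least 3 Adipoq UMIs and at least 0.5% of UMIs from Adipoq and Car3. For each class the counts of a library were added up, and the sums were compared in edgeR 4.0.16 (R 4.3.3; quasi-likelihood, TMM, low-count filter, p-values adjusted over all genes tested in a class). A gene was called at an adjusted p below 0.05 where the fold change reached 1.5. CPM values were scaled by the class total without TMM factors. Single values were compared by exact permutation over all 70 assignments of libraries. The expected adipocyte RNA was computed per library from the ratio of Car3 CPM between a class and the adipocyte-rich droplets, and again with Adipoq or Plin1. The scripts were tested on simulated data. DESeq2 1.42.0, other scalings, gates and filters and leaving out each library were tried as alternatives. The members and gene lists were chosen with earlier results of these data known. Genes named outside the members were those called in a class within lists on neighbouring steps, and the 5 genes most like Fasn; Angptl8, Gapdh, Eno1 and Aldoa were named after their values were seen.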

Additional observations from a re-analysis of the deposited data

Results flagged for a closer look

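In 140 groups of 4 libraries, 6 had a library set apart from the others by Dixon's criterion, and chance alone marks about 1 group in 20. Ad-Lib library 3 was low for Acss2 in Pecam1+ droplets (10.5 CPM) and for Acly (50.3 CPM) and Slc25a1 (11.8 CPM) in C1qa+ droplets. Ad-Lib library 7 was high for Acss2 in Cd79a+ droplets (30.9 CPM). TAN library 8 was the only one of its group with a Mlxipl UMI in Cd3e+ (0.622 CPM) and Cd79a+ droplets (1.33 CPM).

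The change with feeding differed between classes of droplets in 8 cases (edgeR, adjusted p under 0.05). The log2 change of Acly minus that in adipocyte-rich droplets was -2.53 in Pdgfra+, -1.95 in Pecam1+, -2.27 in C1qa+, -2.36 in Cd3e+ and -2.22 in Cd79a+ droplets. In Pdgfra+ droplets the same difference was -2.28 for Me1, -1.28 for Acaca and -1.27 for Fasn.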

How the results depend on the processing

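In adipocyte-rich droplets 6 to 8 members were called in all 18 alternatives, and each of the 7 genes called kept its call wherever it could be tested; Mid1ip1 could not be tested once droplets with another gate gene were removed. Dividing the libraries into replicates 1 to 4 and 5 to 8 changed no count of members called. No paired analysis was possible because the groups share no replicate numbers. The cause of the changes below was not tested.

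In Pdgfra+ droplets the count of members called went from 2 to 1 with a stricter gate, without Car3 or Adipoq UMIs or with a panel gate, to 0 after subtracting adipocyte RNA, and to 0 to 1 with a library left out. In Pecam1+ droplets it went from 5 to 1 without Car3 or Adipoq UMIs and to 0 after subtraction. In C1qa+ droplets it went from 4 to 2, to 1, and to 2 with DESeq2, which gave no adjusted p for Me1 and Acaca. The 4 include Me1, which entered that test through TAN alone. The 2 left without Car3 or Adipoq UMIs were Thrsp and Me1, and the 1 left after subtraction was Me1. As above, the calls without those UMIs in C1qa+ droplets, and that of Thrsp in Pdgfra+ droplets, are not read as support. In Cd3e+ droplets the count went from 0 to 1 without a low-count filter, with the panel gate, with DESeq2 and without Ad-Lib 5 (0 to 1 with a library left out). Over all droplets DESeq2 called 6 members. The difference between classes was called for 2 members rather than 1 in Cd3e+ droplets with RLE scaling, and for 0 to 1 in Cd79a+ droplets with a library left out (0 without Ad-Lib 3). Per Adipoq UMI, 8 members were apart in adipocyte-rich droplets alone, which Adipoq helped to choose, and 3 to 5 with a library left out (5 without TAN 4).

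Single log2 changes also turned in sign; of these, Thrsp in Pecam1+ droplets had been called. With adipocyte RNA subtracted, the values were -0.0059 for Me1 in Pdgfra+, -0.17 for Acly and -0.28 for Thrsp in Pecam1+, -0.30 for Acss2 in C1qa+, -0.089 for Acaca in Cd3e+ and -0.12 for Fasn in Cd79a+ droplets. Without Car3 or Adipoq UMIs they were -0.030 for Thrsp in Pecam1+, -0.21 for Acaca and -0.026 for Fasn in Cd3e+, and -0.038 for Acly and -0.37 for Fasn in Cd79a+ droplets. Elsewhere they were -0.032 for Srebf1 in adipocyte-rich droplets (share limit 0.25%), -0.016 for Acly in Cd3e+ (stricter gate), -0.074 for Slc25a1 in Cd3e+ and -0.20 for Acly in Cd79a+ (panel gate), and -0.17 for Slc25a1 in Cd79a+ (DESeq2). With a library left out the ranges were -0.11 to 0.45 for Acss2 and -0.16 to 0.032 for Srebf1 in C1qa+, -0.024 to 0.34 for Acly in Cd3e+, and -0.078 to 0.14 for Mid1ip1 and -0.078 to 0.014 for Srebf1 over all droplets. Per Adipoq UMI they were -0.45 to 0.069 for Srebf1, -0.36 to 0.034 for Mid1ip1 and -0.021 to 0.37 for Acly, and in adipocyte-rich droplets alone 1.71 for Mid1ip1, -0.035 for Mlxipl and 0.34 for Srebf1. Counts were too low to test Acss2 and Mlxipl in adipocyte-rich droplets. Subtraction used Car3 alone.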
